A study of Homo sapiens with 9 samples.

Results

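AML1-ETO and ETO2-GLIS2 were set directly against each other after 48 h of expression in U937 cells, a human monocytic leukaemia line. The comparison used 2 of the 9 RNA-seq libraries of the study, 1 a side, and the pairs of libraries from the same lines at 0 h and 12 h stood beside it. Genes were kept when the mean FPKM (reads per gene, divided by the length of the gene's exons and the size of the library) of both 48 h libraries was at least 1, which left 12379 of 60623 genes. A gene under 1 FPKM in the lower library passed this filter only through the higher one. For each gene the ratio was log2((AML1-ETO + 0.1)/(ETO2-GLIS2 + 0.1)), so a positive value is a higher level with AML1-ETO and a negative value a higher level with ETO2-GLIS2. A gene was called when it was past 2-fold, and was set aside when it was already past 2-fold in the same direction between the uninduced lines. With 1 library per condition there was no replicate error, and no p-value was computed. Intervals given in brackets are 95% intervals of the log2 ratio of the recovered reads, without the pseudocount, and cover counting error only.

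The AML1-ETO line and the ETO2-GLIS2 line each carried the HA-tagged fusion cDNA in a retroviral Tet-inducible vector with puromycin selection, and the control line carried the empty vector. All 3 lines received 5 μg/ml doxycycline for 0, 12 or 48 h, so the drug is shared by every library compared at 12 h and 48 h. Each fusion line stands for 1 clone, so a property of the clone and an effect of the fusion cannot be told apart at 48 h alone. The cells are monocytic and make the fusion from a transgene, unlike the myeloblastic and megakaryoblastic leukaemias in which the fusions arise.

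AML1-ETO joins the DNA-binding domain of RUNX1 (AML1) to nearly all of ETO (RUNX1T1), a corepressor scaffold, and is known from acute myeloid leukaemia with t(8;21). ETO2-GLIS2 joins ETO2 (CBFA2T3), a relative of ETO, to the zinc fingers of GLIS2 and is known from acute megakaryoblastic leukaemia of young children. Both fusions therefore bring an ETO-family corepressor to DNA, through a RUNX domain in one and GLIS zinc fingers in the other.

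The libraries held 15216880 reads on genes for AML1-ETO and 16357921 for ETO2-GLIS2 at 48 h, within the range of 15136405 to 18443648 over the series. Genes of the mitochondrial genome took 8.82% of summed FPKM in the AML1-ETO library and 12.1% in the ETO2-GLIS2 library. FPKM is a share of the library, so a rise of some genes lowers all others. Of the 12 monocytic markers checked, 9 were compared, and their summed level was 320.2 FPKM with AML1-ETO against 1383 FPKM with ETO2-GLIS2. Of these 9, 6 were called higher with ETO2-GLIS2 (10.2% of all genes compared), so the markers of the line are themselves among the genes that differed. CD68, CSF1R and MPO were under the filter, with CD68 at 0 and 0.0283 FPKM. None of 8 erythroid and none of 5 epithelial markers reached the filter. Of 10 T and NK cell markers only NKG7, of 6 megakaryocyte markers only GP1BA and of 7 B cell markers 4 reached it, among them CD22, PAX5 and CD79A. In bulk RNA, fewer cells expressing a gene and less of its RNA per cell cannot be told apart, and this holds for every level below.

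The fusion transcripts separated the libraries as labelled. RUNX1T1, which U937 cells hardly express and whose sequence AML1-ETO carries, was at 0.512, 22.2 and 28.7 FPKM over the 3 times in the AML1-ETO line, while the ETO2-GLIS2 line listed it at 0 throughout. The 115 reads at 0 h show RUNX1T1 RNA before doxycycline in that line, and the gene was therefore set aside by the rule. CBFA2T3 was at 4.1, 11.4 and 12.6 FPKM in the ETO2-GLIS2 line, at 5.26, 2.28 and 0.22 FPKM in the AML1-ETO line, and at 4.75, 6.38 and 6 FPKM in the empty-vector line. Its 48 h ratio of -5.31 (-6.56 to -5.21) thus held a lower level with AML1-ETO than in the empty-vector line as well as a higher level with ETO2-GLIS2. GLIS2 was at 2.39, 6.79 and 8.85 FPKM in the ETO2-GLIS2 line with 5.6, 2.93 and 2.47 FPKM in the AML1-ETO line, a ratio of 1.19 at 0 h and -1.80 at 48 h. Reads from the transgene and from the endogenous CBFA2T3 and GLIS2 genes were counted together. RUNX1, which gives AML1-ETO its DNA-binding part, was at 16.8 FPKM with AML1-ETO and 25.3 FPKM with ETO2-GLIS2 and stayed within 2-fold (ratio -0.59). In the AML1-ETO line RUNX1 reads can also come from the transgene, so the level of the endogenous gene is not known. CBFA2T2, the remaining gene of the ETO family, was also within 2-fold (0.59).

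At 48 h, 896 genes (7.24%) were called higher with AML1-ETO and 1264 genes (10.2%) higher with ETO2-GLIS2. A further 239 and 129 genes were past 2-fold but set aside, which was 21.1% and 9.26% of the genes past 2-fold in each direction. With none set aside the shares were 9.17% and 11.3%. Between the uninduced lines, 427 (3.8%) and 302 (2.69%) of 11224 genes were past 2-fold, and between the 12 h libraries 580 (4.9%) and 294 (2.48%) of 11847. The SD of the ratio over the genes compared was 0.71 at 0 h, 0.71 at 12 h and 1.13 at 48 h, while its median stayed between 0.02 and 0.07. The pair of lines was thus spread no more widely at 12 h than before induction, and more widely at 48 h. Of the genes called at 48 h, 177 (19.8%) of those higher with AML1-ETO and 140 (11.1%) of those higher with ETO2-GLIS2 were past 2-fold the same way at 12 h. Past 4-fold there were 218 and 379 genes, and past 32-fold 27 and 33.

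**Figure D1:**
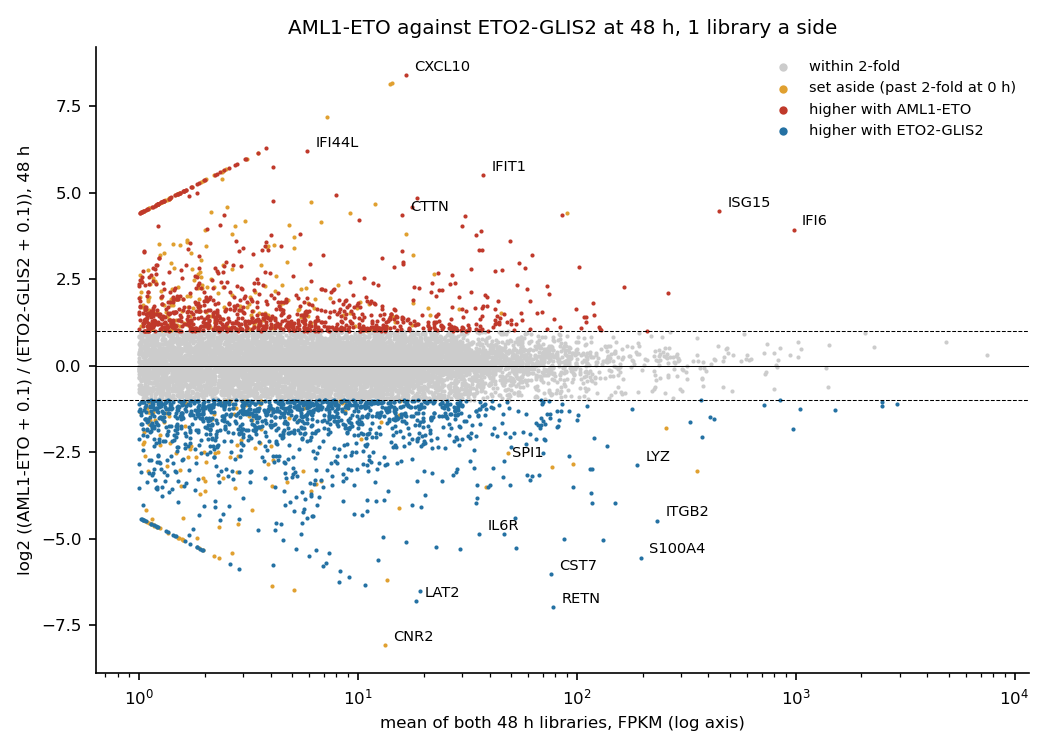
Each point is 1 of the 12379 genes compared, with the mean FPKM of both 48 h libraries on a log axis across and the log2 ratio of AML1-ETO over ETO2-GLIS2 up, and dashed lines at 2-fold. The 896 red and 1264 blue points are the called genes, orange points were set aside, and the slanted rows of points at the left edges are genes listed at 0 in 1 of the libraries.

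The called genes differed in level and kind. Those higher with AML1-ETO had a median of 1.65 FPKM in that line at 0 h, and those higher with ETO2-GLIS2 6.53 FPKM, against 6.12 FPKM over the genes compared. Protein coding genes made up 60.5% of the first group, 77.2% of the second and 80.0% of the genes compared, while long noncoding RNAs made up 16.3%, 10.5% and 9.21%. Of the genes higher with AML1-ETO, 58 were listed at 0 in the ETO2-GLIS2 library, and 54 of these had exons of under 500 bases in all, where few reads make a high FPKM. Of the genes higher with ETO2-GLIS2, 26 were listed at 0 in the AML1-ETO library, 24 of them with such short exons. Genes at 10 FPKM or more in the higher library numbered 293 for AML1-ETO and 562 for ETO2-GLIS2.

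The change of each line from its own 0 h library showed which line carried each difference. Of the 896 genes higher with AML1-ETO, 675 (75.3%) were past 2-fold up in the AML1-ETO line, of which 485 were within 2-fold in the ETO2-GLIS2 line. Another 157 of the 675 were up in both lines, and 37 genes outside the 675 were down in the ETO2-GLIS2 line and within 2-fold in the AML1-ETO line. The empty-vector line was also past 2-fold up for 122 of the 675. Of the 1264 genes higher with ETO2-GLIS2, 825 (65.3%) were past 2-fold down in the AML1-ETO line, of which 691 were within 2-fold in the ETO2-GLIS2 line. Only 167 were up in the ETO2-GLIS2 line and within 2-fold in the AML1-ETO line, and 93 were down in the AML1-ETO line and up in the ETO2-GLIS2 line. Of all 290 genes of this group up in the ETO2-GLIS2 line, 133 were also past 2-fold up in the empty-vector line. Of the 825, 31 were also past 2-fold down in the empty-vector line. The median change of the second group was -1.35 in the AML1-ETO line, 0.33 in the ETO2-GLIS2 line and 0.20 in the empty-vector line. Over the genes compared, 18.3% were past 2-fold up and 10% down in the AML1-ETO line, 13% up and 1.92% down in the ETO2-GLIS2 line, and 8.97% up and 2.58% down in the empty-vector line. In both directions, then, most of the differences lay with a change in the AML1-ETO line. The 48 h ratio is the difference of the changes plus the 0 h ratio, so these counts describe the same values in another way.

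**Figure D2:**
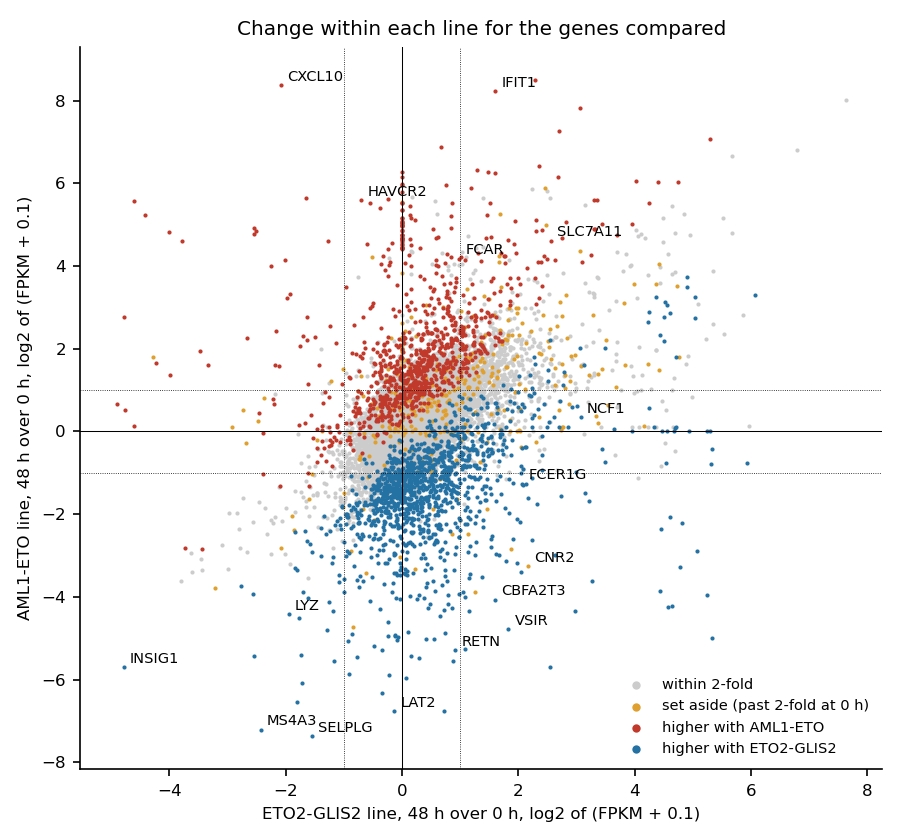
Each point is a gene compared, placed by its change from 0 h to 48 h in the ETO2-GLIS2 line (across) and in the AML1-ETO line (up), both as log2 of FPKM plus 0.1, with dotted lines at 2-fold. Red points (higher with AML1-ETO) spread upward and blue points (higher with ETO2-GLIS2) downward, while most of both lie within 2-fold on the ETO2-GLIS2 axis.

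Interferon-stimulated genes were the clearest group on the AML1-ETO side. These genes encode antiviral effectors and sensors and are switched on by interferon through a complex that holds STAT2 and IRF9 and binds the interferon-stimulated response element. Of 46 listed genes 40 were compared, 35 were called higher with AML1-ETO (7.24% of all genes compared), 0 higher with ETO2-GLIS2, 2 were set aside and 3 were within 2-fold. The median ratio was 2.80 against 0.05 over all genes compared. Only 28 of the 40 genes reached a mean of 1 FPKM over both fusion lines at 0 h, and 29 at 12 h. OAS2, near 0 in every other library, passed the filter only through its 48 h level with AML1-ETO. For such members a call higher with AML1-ETO follows from the filter. The counts and medians of this list include them. IFIT1, which binds viral RNA lacking cap methylation, was at 0.144, 0.0702 and 73.5 FPKM in the AML1-ETO line at 0, 12 and 48 h, against 0.435, 0.606 and 1.52 FPKM in the ETO2-GLIS2 line with 0.173, 0.229 and 0.774 FPKM in the empty-vector line. Its ratio was 5.50 (5.33 to 5.87). ISG15, a ubiquitin-like modifier, was at 13.6, 24.4 and 856 FPKM in the AML1-ETO line against 22.7, 26.2 and 38.5 FPKM in the ETO2-GLIS2 line. Both genes were lower in the AML1-ETO line at 0 h and 12 h, IFIT1 past 2-fold both times (ratios of -1.13 and -2.05), and higher in it at 48 h. IFI44L was listed at 0 at 0 h in both fusion lines and had 1821 reads with AML1-ETO against 10 with ETO2-GLIS2 at 48 h, a ratio of 6.21 (6.73 to 8.68 on the reads). OAS2, a sensor of double-stranded RNA, had 350 reads against 2 (5.69 to 10.61).

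Transcription factors and RNA sensors of the list lay on the same side. STAT2 was at 96.7 FPKM with AML1-ETO and 26.2 FPKM with ETO2-GLIS2, IRF7 at 96.6 and 12.3 FPKM, and the RNA sensors DDX58 at 68.4 and 4.55 FPKM and IFIH1 at 30 and 6.18 FPKM. HERC5 (0.72), IFITM2 (-0.24) and IFI35 (-0.54) were the 3 listed genes within 2-fold. At 12 h, 0 of the 29 listed genes compared were past 2-fold higher with AML1-ETO (4.9% of all genes compared at 12 h). Past 2-fold higher with ETO2-GLIS2 were 5 of them (2.48%), and the median ratio of the list was -0.25. Already at 0 h, 3 of 28 were past 2-fold higher in the ETO2-GLIS2 line (2.69% of all genes compared at 0 h), and the list median was -0.26. From 0 h to 48 h, 39 of the 40 genes were past 2-fold up in the AML1-ETO line, 16 in the ETO2-GLIS2 line and 10 in the empty-vector line, with median changes of 4.13, 0.80 and 0.47. Over all genes compared, the shares up were 18.3%, 13% and 8.97%. Interferons themselves, looked up after these values were seen, were hardly detected. IFNB1 had 4 reads with AML1-ETO and 1 with ETO2-GLIS2, and IFNA1, IFNA2, IFNG and IFNL1 were listed at 0 in both, which at this depth allows up to 3 reads each. TMEM173, the adaptor of the DNA-sensing pathway known as STING and looked up in the same way, lay on the other side at 5.33 FPKM with AML1-ETO and 27.2 FPKM with ETO2-GLIS2. The sensor CGAS (0.14) and the adaptor MAVS (0.24), also looked up then, were within 2-fold, and TLR3 was under the filter at 0.323 and 0.336 FPKM.

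The promoters of the genes with the largest ratios among protein coding genes at 10 FPKM or more, not set aside, are shown because interferon-stimulated genes are known by the sequence before their start. Each is the 250 bases upstream of the RefSeq start (GRCh38.p14), and capitals mark 4 motifs searched on both strands: GAAA repeated after any 2 bases (the interferon-stimulated response element), TGTGGT (RUNX), GAGGAA (PU.1) and TGGGGG (GLIS). Where motifs overlap the capitals run together.
CXCL10, chr4:76023498-76023747, minus strand: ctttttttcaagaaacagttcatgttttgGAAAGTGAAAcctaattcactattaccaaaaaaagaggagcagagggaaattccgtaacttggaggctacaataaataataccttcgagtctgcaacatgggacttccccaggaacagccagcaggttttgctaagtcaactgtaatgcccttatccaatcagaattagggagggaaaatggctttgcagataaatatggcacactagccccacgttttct
IFI44L, chr1:78620198-78620447, plus strand: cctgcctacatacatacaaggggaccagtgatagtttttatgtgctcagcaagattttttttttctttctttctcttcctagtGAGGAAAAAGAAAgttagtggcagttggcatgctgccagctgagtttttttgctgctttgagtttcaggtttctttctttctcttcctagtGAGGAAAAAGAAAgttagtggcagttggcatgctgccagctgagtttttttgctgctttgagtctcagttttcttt
IFIT1, chr10:89392373-89392622, plus strand: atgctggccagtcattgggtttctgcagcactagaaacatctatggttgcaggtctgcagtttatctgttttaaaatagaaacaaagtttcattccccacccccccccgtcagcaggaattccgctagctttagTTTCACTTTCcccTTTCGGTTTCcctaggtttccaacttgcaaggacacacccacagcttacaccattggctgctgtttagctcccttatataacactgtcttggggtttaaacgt
In CXCL10 the response element began 221 bases before the start on the strand shown. In IFI44L it lay at 164 and again at 73 bases before the start, each time overlapping GAGGAA in a repeated stretch. IFIT1 held it at 116 and 103 bases before the start, on the opposite strand. The response element motif was in 15 (55.6%) of 27 promoters found for the listed genes called higher with AML1-ETO. Promoters were found for 418 of the 542 protein coding genes called higher with AML1-ETO, and 40 (9.57%) of them held it. For ETO2-GLIS2 they were found for 763 of 976, and 11 (1.44%) held it. Among the protein coding genes compared, 2.49% of the 8187 promoters found held it. Without the listed genes the share on the AML1-ETO side was 6.39% of 391 promoters. Over all 27305 promoters of this length it was 3.07%. A match describes these letters and is not a measured site.

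Secreted signals followed in part. CXCL10, a chemokine for activated T cells and itself induced by interferon, had 595 reads (33.3 FPKM) with AML1-ETO and none with ETO2-GLIS2 at 48 h, at least 213-fold higher against a floor of 3 reads. It had 0 and 6 reads in the AML1-ETO line and 7 and 0 reads in the ETO2-GLIS2 line at 0 h and 12 h. CXCL8, the neutrophil chemokine interleukin-8, was at 15, 20.7 and 113 FPKM in the AML1-ETO line against 12.6, 4.67 and 12.2 FPKM in the ETO2-GLIS2 line, so it was already apart at 12 h (ratio 2.13, and 3.21 at 48 h). CCL5, a chemokine for T cells and monocytes, was at 122 and 24.7 FPKM at 48 h. Of 11 chemokines and TNF-family ligands compared, 5 were called higher with AML1-ETO (7.24% of all genes compared) and 2 with ETO2-GLIS2 (10.2%), 2 were set aside, and the median was 1.22. CXCL10 passed the filter only through its 48 h level with AML1-ETO, so its call follows from the filter. TNFSF14 (LIGHT) was on the ETO2-GLIS2 side at 0.206 and 8.16 FPKM, and TNF at 1.1 and 2.33 FPKM. For antigen presentation by MHC, 2 of 14 genes were called higher with AML1-ETO (7.24% of all genes compared). This count was too small to be read as a difference. The 2 were TAP1, the peptide transporter, at 46.4 and 11.6 FPKM and NLRC5, the activator of class I genes, at 7.23 and 1.94 FPKM. The class I genes HLA-B and HLA-C had ratios of 0.29 and 0.96, although reads can be shared among these close relatives.

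Not every gene on the AML1-ETO side waited until 48 h. FCAR, the Fc receptor for IgA, was at 3.01, 31.1 and 56.3 FPKM in the AML1-ETO line against 1.65, 1.65 and 3.34 FPKM in the ETO2-GLIS2 line, with ratios of 4.16 at 12 h and 4.03 at 48 h. CTTN, which encodes the actin-binding protein cortactin, was at 0.929, 5.93 and 30.5 FPKM against 0.944, 0.998 and 1.41 FPKM (4.34, 4.21 to 4.67). HAVCR2 (TIM-3), an inhibitory receptor, was at 0.3, 1.01 and 19.3 FPKM against 1.6, 1.04 and 0.952 FPKM, and its lines were apart in the other direction at 0 h (ratio -2.09). JUP, or plakoglobin, which belongs to a list of genes known from t(8;21) leukaemia, was at 12.1, 13.3 and 40.5 FPKM against 7.91, 5.94 and 6.28 FPKM. PAX5, from the same list, was at 2.52 and 1.13 FPKM at 48 h. JUP and PAX5 were the 2 called of 7 compared (7.24% of all genes compared). POU4F1 (0.56) was within 2-fold. CD36 and KLF4, genes of monocytes, and CEBPE, a factor of granulocyte maturation, had ratios of 3.33, 1.65 and 1.35, and BCL6, a repressor, was at 15.7 and 2.83 FPKM.

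**Figure D3:**
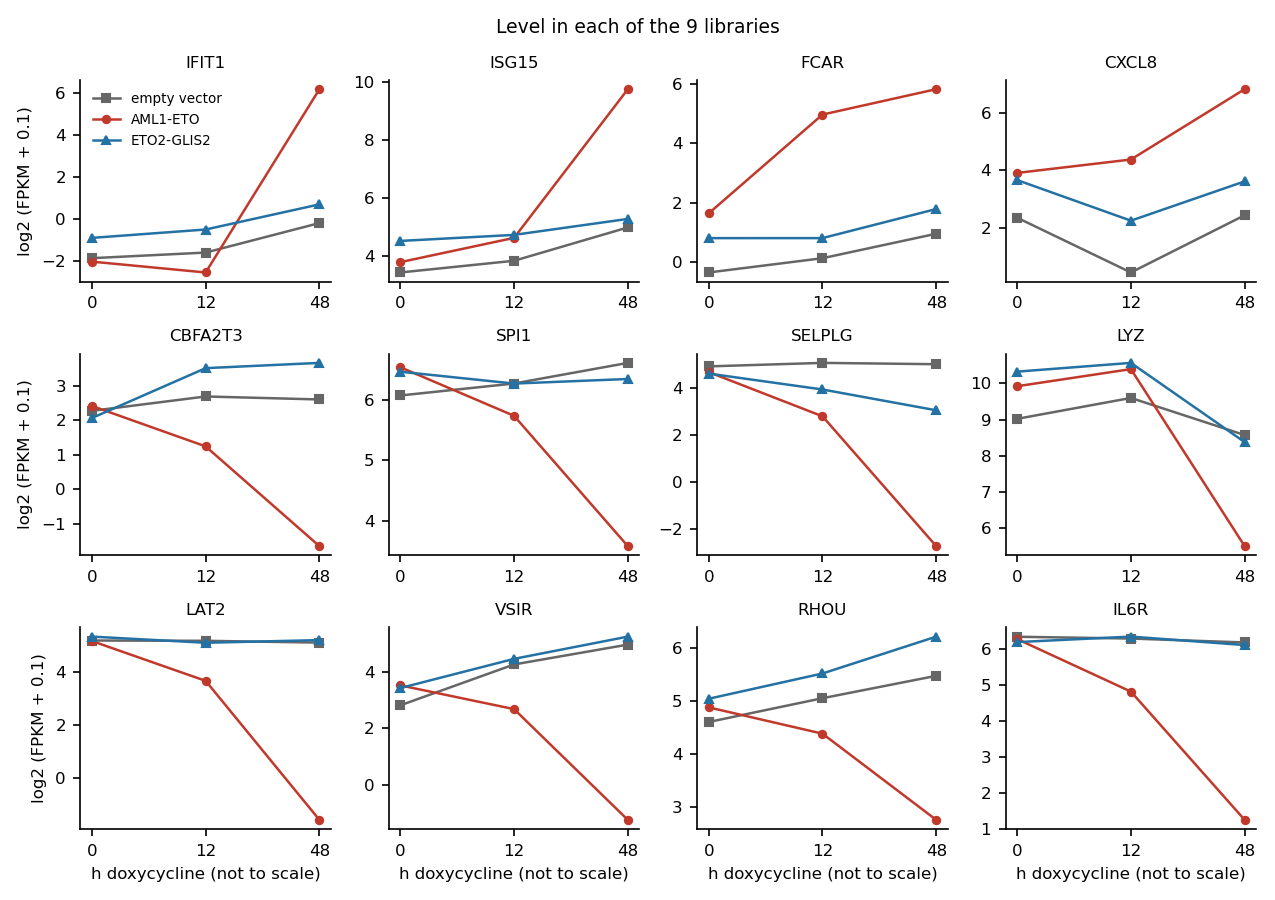
Levels of 12 genes as log2 of FPKM plus 0.1 at 0, 12 and 48 h (spacing not to scale), 1 library a point, for the empty-vector line (grey squares), the AML1-ETO line (red circles) and the ETO2-GLIS2 line (blue triangles). IFIT1 and ISG15 lie above the ETO2-GLIS2 points only at 48 h and FCAR is past 2-fold from 12 h, while for LAT2, IL6R and SPI1 the ETO2-GLIS2 library stays close to the empty-vector one.

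The ETO2-GLIS2 side held many members of the myeloid lists. SPI1, which encodes PU.1, the master factor of the monocytic lineage, was at 92.6, 53.1 and 11.9 FPKM in the AML1-ETO line at 0, 12 and 48 h, against 88, 76.8 and 80.9 FPKM in the ETO2-GLIS2 line with 67, 76.9 and 97.3 FPKM in the empty-vector line. Its 48 h ratio was -2.76 (-2.93 to -2.61). CEBPA, the factor of granulocyte and monocyte commitment, was at 98.5, 37.5 and 6.62 FPKM against 49.2, 27 and 24.5 FPKM, so its ratio was positive at 0 h and -1.87 at 48 h, and 43.9% of its exon bases overlap a gene on the other strand that these unstranded libraries cannot separate. Of 39 myeloid transcription factors compared, 10 were called higher with ETO2-GLIS2 (10.2% of all genes compared) and 3 higher with AML1-ETO (7.24%). Their median was -0.40. KLF10 (0.482 and 10.8 FPKM), CXXC5, which is a CXXC zinc finger protein (0.797 and 12.5 FPKM), IRF5 (5.02 and 23.5 FPKM) and IKZF1 (11.2 and 32 FPKM) were among the 10. RHOU, a small GTPase, was at 29.3, 20.8 and 6.68 FPKM against 32.8, 45.6 and 73.9 FPKM (-3.45). CEBPB (-0.87) and ELF1 (0.37) stayed within 2-fold, and ERG, at 0.563 and 0.677 FPKM, was under the filter.

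The azurophil granule list showed the most negative median of the 18 lists plotted, -1.55. It holds proteases and antimicrobial proteins stored by myeloid precursors, and other genes of these cells. Of 16 genes compared, 10 were called higher with ETO2-GLIS2 (10.2% of all genes compared) and 0 with AML1-ETO (7.24%). CTSG (cathepsin G) was at 83.8, 63.4 and 2.59 FPKM in the AML1-ETO line against 108, 166 and 103 FPKM in the ETO2-GLIS2 line. CST7, an inhibitor of cysteine cathepsins, was at 138, 99.3 and 2.21 FPKM against 176, 193 and 151 FPKM. LYZ (lysozyme) was at 969.7, 1346 and 45.1 FPKM against 1283, 1517 and 332 FPKM, so both lines were lower at 48 h than at 0 h, and 34.7% of its exon bases overlap a gene on the other strand. MS4A3, a membrane protein of granulocyte and monocyte precursors, was likewise lower in both, from 80.2 to 0.442 FPKM and from 61.3 to 11.3 FPKM. RNASE2 (5.2 and 170 FPKM) and RNASE3 (4.65 and 99.8 FPKM) lay together, although they are close copies that can share reads. ELANE, neutrophil elastase, was within 2-fold at 66.7 and 122 FPKM, as were SERPINB1, PRSS57 and CFD with positive ratios.

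Of 33 immunoreceptor signalling genes, 15 were called higher with ETO2-GLIS2 (10.2% of all genes compared) and 1, CD37, with AML1-ETO (7.24%). Their median was -0.91. LAT2, the adaptor that links activating receptors to downstream kinases, was at 35.8, 12.5 and 0.231 FPKM in the AML1-ETO line (2697, 880 and 16 reads), at 40.2, 34.2 and 36.7 FPKM in the ETO2-GLIS2 line with 36.3, 36 and 34.3 FPKM in the empty-vector line. The ETO2-GLIS2 line thus kept its level, and the ratio of -6.79 (-8.12 to -6.61) lay with the AML1-ETO line. FGR, a Src-family kinase, was at 1.07 and 44.4 FPKM at 48 h, RAC2, the GTPase of the phagocyte oxidase, at 3.02 and 90.3 FPKM, and VAV1, an exchange factor for Rac, at 3.03 and 22.1 FPKM. SYK (-0.85), LYN (-0.46) and BTK (0.01) stayed within 2-fold. Of the 5 phagocyte NADPH oxidase genes, CYBB, the catalytic subunit, at 0.357 and 1.74 FPKM and NCF1 (p47phox) at 1.12 and 6.56 FPKM were higher with ETO2-GLIS2. CYBB passed the filter only through its 48 h level with ETO2-GLIS2, so its call follows from the filter. NCF1 has near-identical pseudogenes, so its reads are uncertain.

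Of 30 monocyte surface genes, 14 were called higher with ETO2-GLIS2 (10.2% of all genes compared) and 3 with AML1-ETO (7.24%). Their median was -0.96. VSIR (VISTA), an inhibitory checkpoint protein, was at 11.5, 6.34 and 0.319 FPKM in the AML1-ETO line against 10.7, 22.1 and 38.4 FPKM in the ETO2-GLIS2 line, while the empty-vector line moved from 6.97 to 31.5 FPKM. FCER1G, the signalling chain shared by Fc receptors, was at 40.5, 41.3 and 16.8 FPKM against 51.6, 88.5 and 217 FPKM, with 133 FPKM in the empty-vector line at 48 h. TYROBP (DAP12), its relative, was at 1.59 and 24.8 FPKM. For these genes the ETO2-GLIS2 library resembled the empty-vector library at 48 h. CD4, FCGR1A and CD33 were within 2-fold. Cytokine receptors had 8 of 20 genes higher with ETO2-GLIS2 (10.2%) and 0 with AML1-ETO (7.24%), with a median of -0.62. Among them IL6R was at 2.27 and 69.6 FPKM, TNFRSF1B at 5.91 and 50 FPKM, IL10RA at 0.819 and 8.63 FPKM and FLT3 at 0.743 and 5.07 FPKM. The interferon receptor gene IFNGR2 was also among them at 3.42 and 16.3 FPKM, and IFNAR1 was within 2-fold.

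Homing and adhesion genes had 8 of 23 higher with ETO2-GLIS2 (10.2% of all genes compared) and 0 with AML1-ETO (7.24%). Their median was -0.84. SELPLG, which encodes PSGL-1, the ligand of the selectins, was at 25.2, 6.81 and 0.0527 FPKM in the AML1-ETO line against 24.1, 15.1 and 8.14 FPKM in the ETO2-GLIS2 line, with 29.8 to 33 FPKM in the empty-vector line. Both fusion lines were therefore below the empty-vector line, with 2 reads left with AML1-ETO and 332 with ETO2-GLIS2 (-10.32 to -5.41). FUT7, the fucosyltransferase that completes the selectin ligand, had 0 and 102 reads, at least 31.6-fold lower with AML1-ETO. It passed the filter only through its 48 h level with ETO2-GLIS2, so its call follows from the filter. CXCR4, the receptor that holds cells in the marrow, was at 101, 74.2 and 2.07 FPKM against 82.5, 80.7 and 36.8 FPKM. ITGB2, the shared chain of the leukocyte integrins, was at 20.1 and 448 FPKM at 48 h, and its partner ITGAL, at 0.267 and 26.8 FPKM, was set aside. ITGB1, ITGA5 and ITGAV were within 2-fold with ratios of 0.10 to 0.38.

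Of 30 actin cytoskeleton genes, 8 were higher with ETO2-GLIS2 (10.2% of all genes compared) and CTTN alone was higher with AML1-ETO (7.24%). Their median was -0.58. LSP1 (0.17 and 16.4 FPKM), MYO1G (1.36 and 57.2 FPKM), CAPG (7.69 and 256 FPKM) and CORO1A (10 and 45.3 FPKM) were apart, while ACTG1, RHOA, RAC1 and CDC42 had ratios of -0.20 to -0.01. ACTB was at 1109 and 1712 FPKM. S100A4, a calcium-binding protein of motile cells, was at 159, 242 and 8.13 FPKM against 281, 310 and 384 FPKM. Of 14 S100 and annexin genes, 5 were higher with ETO2-GLIS2 (10.2%) and 1, ANXA1, with AML1-ETO (7.24%). For lysosomal genes 5 of 21 were higher with ETO2-GLIS2 (10.2%), led by LAPTM5 (15.6 and 178 FPKM), and 0 with AML1-ETO (7.24%). The median of the lysosomal genes was -0.38.

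**Figure D4:**
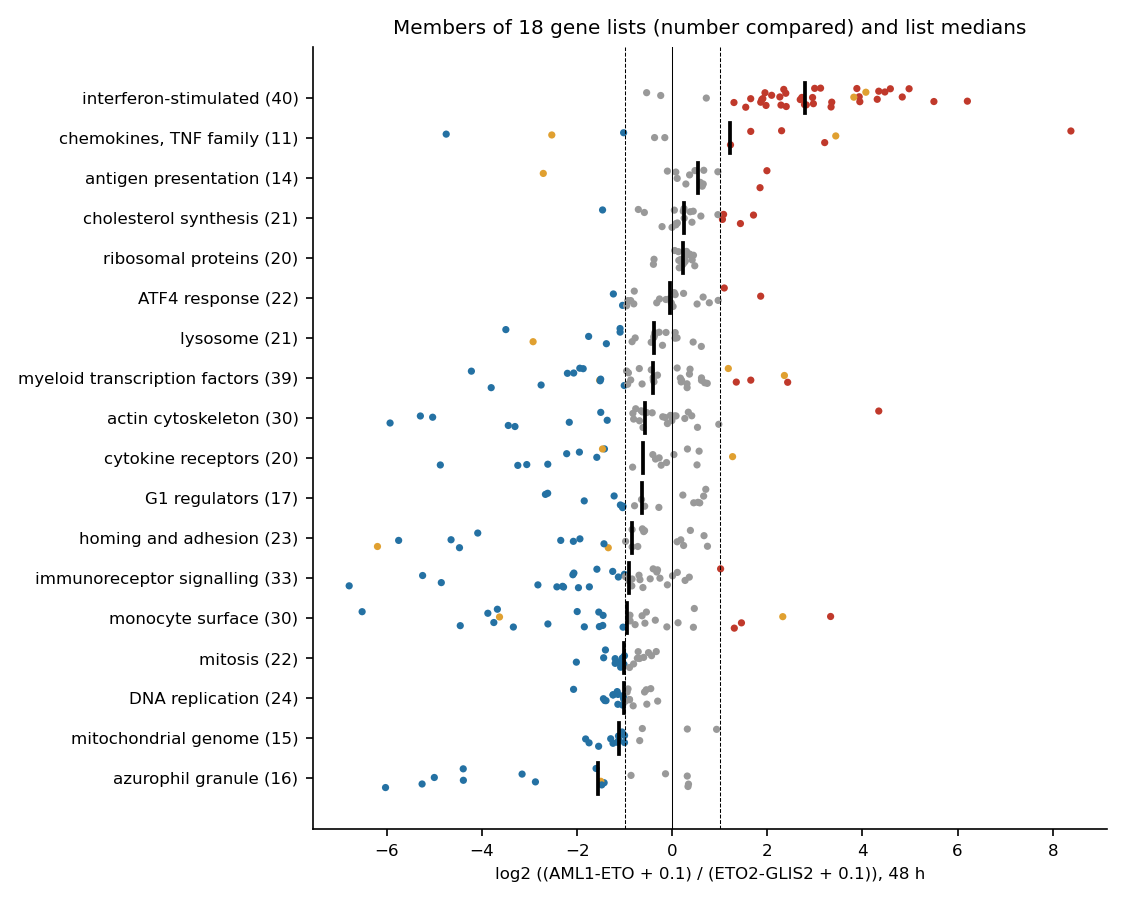
Each point is a compared member of 1 of 18 gene lists (number compared in brackets), placed by its 48 h log2 ratio of AML1-ETO over ETO2-GLIS2, coloured as in the plot of ratio against level, with black bars at list medians and dashed lines at 2-fold. The interferon-stimulated list has its median at 2.80, ribosomal proteins at 0.24 and azurophil granule genes at -1.55.

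RETN, which encodes resistin, had the largest difference on the ETO2-GLIS2 side among protein coding genes at 10 FPKM or more that were not set aside. It was at 48.5, 109 and 1.15 FPKM in the AML1-ETO line against 82.6, 116 and 155 FPKM in the ETO2-GLIS2 line (ratio -6.96, -8.21 to -6.15), and at 130 FPKM in the empty-vector line at 48 h. LAT2, VSIR, SLA, LGALS12, RFX8, CST7, LSP1, NINJ1, PHACTR3, SIGLEC6 and S100A4 followed, each past 32-fold. All 12 were at 8.33 FPKM or more in the uninduced AML1-ETO line, and their own change with ETO2-GLIS2 lay between -0.34 and 1.83. The upstream sequences of RETN, VSIR and NINJ1 are shown for comparison with those above, in the same form, as the first 3 of the 12 with an entry in the promoter table.
RETN, chr19:7668799-7669048, plus strand: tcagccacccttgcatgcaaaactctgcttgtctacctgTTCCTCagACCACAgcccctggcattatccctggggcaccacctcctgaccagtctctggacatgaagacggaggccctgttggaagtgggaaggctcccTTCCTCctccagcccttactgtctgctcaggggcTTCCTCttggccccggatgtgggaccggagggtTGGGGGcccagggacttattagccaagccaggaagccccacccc
VSIR, chr10:71773521-71773770, minus strand: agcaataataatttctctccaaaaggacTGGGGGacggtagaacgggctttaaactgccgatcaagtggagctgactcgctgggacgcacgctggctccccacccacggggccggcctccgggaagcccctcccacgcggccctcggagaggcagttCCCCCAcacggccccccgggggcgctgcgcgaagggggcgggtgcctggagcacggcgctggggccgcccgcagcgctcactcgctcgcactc
NINJ1, chr9:93134252-93134501, minus strand: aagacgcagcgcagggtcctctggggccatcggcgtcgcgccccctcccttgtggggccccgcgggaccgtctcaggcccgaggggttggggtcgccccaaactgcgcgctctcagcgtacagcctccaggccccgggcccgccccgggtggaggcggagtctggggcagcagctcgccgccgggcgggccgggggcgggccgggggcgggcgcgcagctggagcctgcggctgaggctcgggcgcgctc
RETN held GAGGAA on the opposite strand at 211, 111 and 77 bases before its start, TGTGGT on the opposite strand at 203 bases and TGGGGG at 44 bases. VSIR held TGGGGG at 222 bases and, on the opposite strand, at 93 bases. NINJ1 held none of the 4 motifs in this window. TGTGGT was in 75 (9.83%) of the 763 promoters found for protein coding genes higher with ETO2-GLIS2 and in 20 (4.78%) of the 418 found for AML1-ETO. It was in 7.32% of those found for protein coding genes compared and in 10.9% of all promoters. TGGGGG was in 33.2% and 34.2% of the called groups against 28.4% of the genes compared, and GAGGAA in 24.1% and 24.2% against 23.05%, so the shares of the called groups were close to each other.

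DNA replication and mitosis genes stood lower with AML1-ETO as whole lists, with medians near 2-fold, while 6 of 17 G1 regulators had positive ratios. All 24 DNA replication genes compared had negative ratios, from -2.08 to -0.31 with a median of -1.02. Of these, 13 were called higher with ETO2-GLIS2 (10.2% of all genes compared) and 0 with AML1-ETO (7.24%). PCNA, the sliding clamp, was at 164, 139 and 41.8 FPKM in the AML1-ETO line against 183, 222 and 110 FPKM in the ETO2-GLIS2 line, with 195, 198 and 157 FPKM in the empty-vector line. Of these 24 genes, 23 were past 2-fold down from 0 h in the AML1-ETO line, 2 in the ETO2-GLIS2 line and 1 in the empty-vector line. Over all genes compared, the shares down were 10%, 1.92% and 2.58%. All 22 mitosis genes were likewise negative, from -2.02 to -0.34 with a median of -1.02, and 13 were called (10.2% of all genes compared). MKI67, the proliferation marker, was at 67.2, 44.8 and 25.3 FPKM against 64.8, 64.3 and 67.2 FPKM. Both medians lay at the 2-fold limit, so the counts called depend on it. Among 17 G1 regulators, 7 were higher with ETO2-GLIS2 (10.2% of all genes compared), or 4 with a pseudocount of 1 FPKM. The 7 included E2F2 (1.66 and 11.1 FPKM), CCNE2 (1.32 and 5.01 FPKM) and the inhibitor CDKN2D (2.18 and 13.9 FPKM). CDKN1A, the inhibitor p21, was within 2-fold at 33 and 24.1 FPKM.

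Genes of the mitochondrial genome were on the ETO2-GLIS2 side in 11 of 15 cases (10.2% of all genes compared), with a median of -1.12. MT-ATP6 was at 431 and 1523 FPKM and MT-ND4 at 876 and 2148 FPKM at 48 h, the latter from 4717 and 7719 FPKM at 0 h. MT-RNR1 (0.93) and MT-RNR2 (0.32), the ribosomal RNAs, were within 2-fold with positive ratios. Nuclear copies of these genes can share reads with them. For survival genes, BCL2 was at 0.413 and 2.21 FPKM while BCL2A1, at 80.1 and 32.2 FPKM, and BAK1, at 64.4 and 25 FPKM, were higher with AML1-ETO. BCL2 passed the filter only through its 48 h level with ETO2-GLIS2, so its call follows from the filter. Of 14 survival genes compared, 3 were called higher with ETO2-GLIS2 (10.2% of all genes compared) and 2 with AML1-ETO (7.24%). Counts this small were not read as a difference. In glycolysis and the hypoxia response, PKM (25.9 and 205 FPKM) and HK2 (68.2 and 28.4 FPKM) went opposite ways. Of these 17 genes, 3 were called higher with ETO2-GLIS2 (10.2%) and 1 with AML1-ETO (7.24%), again too few to be read as a difference.

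The remaining lists had at most 5 genes called each. Over all genes compared, 7.24% were called higher with AML1-ETO and 10.2% higher with ETO2-GLIS2. Of 22 ATF4 response genes, 2 were called in each direction, near those shares, and the median was -0.04. From 0 h, 13, 17 and 13 of the 22 were past 2-fold up in the AML1-ETO, ETO2-GLIS2 and empty-vector lines. The shares of all genes compared that were up were 18.3%, 13% and 8.97%. SLC7A11, the cystine transporter, was at 68.9 and 18.9 FPKM and PSAT1, of serine synthesis, at 107 and 253 FPKM. Past 2-fold down from 0 h were 10%, 1.92% and 2.58% of all genes compared in the AML1-ETO, ETO2-GLIS2 and empty-vector lines. Cholesterol synthesis genes were past 2-fold down from 0 h in 19, 20 and 21 of 21 cases in the same order of lines. Their 48 h median was 0.25, with 4 of 21 genes higher with AML1-ETO (7.24% of all genes compared), among them HMGCS1 (5.95 and 2.14 FPKM), DHCR7 and SREBF2, and 1, INSIG1, higher with ETO2-GLIS2 (10.2%). None of 20 ribosomal protein genes (median 0.24) and none of 15 heme and iron genes (median 0.24) was called. Corepressors and partners of the ETO family were mostly level, with a median of -0.01 over 17 genes. Of these, 2 were called in each direction, again near the 7.24% and 10.2% of all genes compared. HDAC1 (143 and 67.2 FPKM) and LMO2 (82.5 and 39.4 FPKM) were higher with AML1-ETO, and CBFB, the partner of RUNX1 (18.6 and 39.8 FPKM), was higher with ETO2-GLIS2. Of 26 genes known from megakaryocytes and their leukaemias only 3 passed the filter, 0 were called, and 12 were at 0 in both 48 h libraries. Of 11 hedgehog, BMP and ID genes 2 were called each way (7.24% and 10.2% of all genes compared). GLI1 (2.45 and 0.536 FPKM) and SMAD6 were higher with AML1-ETO, and SMAD7 and ID2 (4.99 and 24.7 FPKM) with ETO2-GLIS2. GLI1 passed the filter only through its 48 h level with AML1-ETO, so its call follows from the filter. The median of this list, 0.02, changed sign with the scaling.

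**Figure D5:**
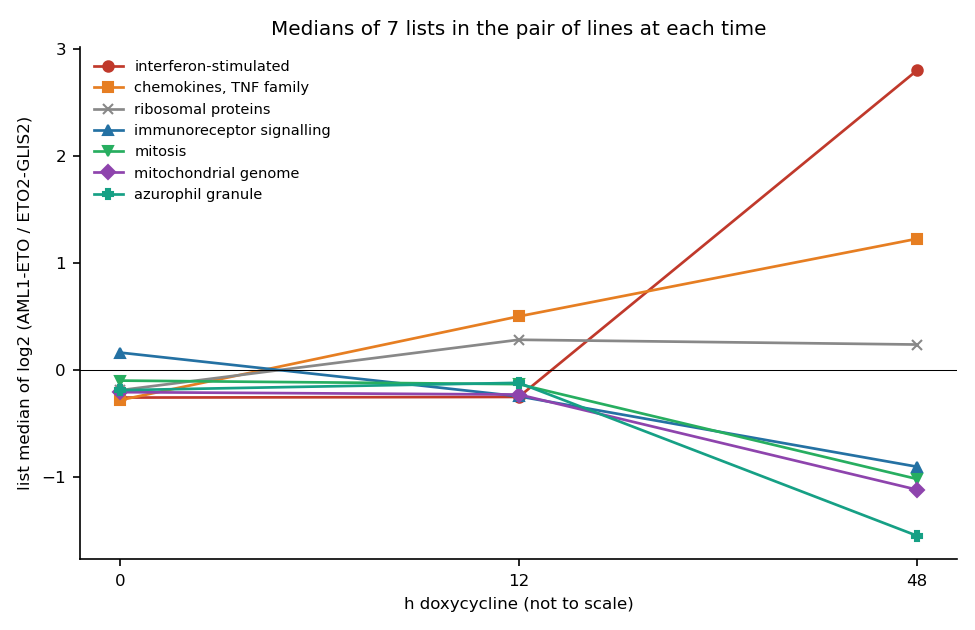
Median log2 ratio of the AML1-ETO line over the ETO2-GLIS2 line for 7 gene lists at 0, 12 and 48 h (spacing not to scale), over the members compared at 48 h, 1 library a side at each time. The interferon-stimulated median goes from -0.25 at 12 h to 2.80 at 48 h and the azurophil granule median from -0.12 to -1.55.

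Genes that moved in opposite directions from 0 h to 48 h, each past 2-fold, numbered 38 up with AML1-ETO and down with ETO2-GLIS2 and 102 the other way. At 10 FPKM or more there were 2 and 24, and in 15 of those 24 the empty-vector line was also past 2-fold up. VSIR and FGR were among these 15. CBFA2T3 was not, since the empty-vector line changed by 0.33, and neither was SLA, a Src-like adaptor, at 10.1, 5.16 and 0.167 FPKM in the AML1-ETO line, 10, 18.3 and 21.4 FPKM in the ETO2-GLIS2 line, with 8.69, 14.4 and 13.4 FPKM in the empty-vector line.

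The genes set aside were past 2-fold before doxycycline, and their 48 h ratio is given as it stands. CNR2, the peripheral cannabinoid receptor, was at 0.859, 0.874 and 0 FPKM in the AML1-ETO line against 5.9, 12.9 and 26.7 FPKM in the ETO2-GLIS2 line, at least 713-fold lower with AML1-ETO at 48 h. CAMP, the cathelicidin peptide, was at 1.38, 2.7 and 0 FPKM against 3.35, 5.48 and 8.12 FPKM. ADM2 was at 0.0153 and 10.3 FPKM at 48 h (-14.69 to -6.90). RTL8C was at 17.5, 17.8 and 28.2 FPKM against 0 at all 3 times, a difference of the lines that was there from the start. At the 2-fold limit, HSPB1 (1.0001) was just inside and AC131212.3 (1.43 and 0.667 FPKM) just outside on the AML1-ETO side, and STIL (-1.0001) and HSD17B4 (-0.9993) on the other.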

How the data were processed

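RNA was sequenced from 9 U937 libraries, 3 lines at 3 time points, 1 library each, grouped by the sample labels. The authors aligned reads to hg38 with HISAT2 (2.0.5), used SAMtools (1.7), took gene counts from HTSeq (0.9.1) at default settings and deposited FPKM for 60623 genes. The annotation version is not given in the sources used here. FPKM fixes each library's total, so abundant genes shift the rest, and the kit did not mark strand.

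From the deposited FPKM, log2 ratios were computed in Python (3.11.15, numpy 2.4.6, pandas 2.3.3, scipy 1.17.1, matplotlib 3.10.9) with a pseudocount of 0.1 FPKM, which understates changes of low genes. Ratios and fold limits in the text use that scale. Folds given as "at least" are instead the FPKM of the higher library over a floor of 3 reads in the lower one. Read numbers were recovered from the whole-number steps of FPKM for 23872 (99.9%) of 23889 genes above 0 in at least 3 libraries, and gave exact Clopper-Pearson intervals, left out for genes above 20000 reads, and floors of 3 reads. The steps were tested on simulated data. Without molecular identifiers, reads need not be separate molecules. The files held 0 columns of other samples.

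The comparison, the members and the 34 gene lists were chosen with earlier results of these data known. The genes named were, in each direction, the 12 protein coding genes at 10 FPKM or more with the largest ratio, up to 4 called members of each list, the fusion parts with SPI1, CEBPA, CEBPB, RHOU, ELF1 and ERG, genes at the 2-fold limit, 8 genes with opposite changes and 3 set aside in each direction. List members outside this rule were named after their values were seen. Gene types and exon overlaps came from an annotation on GRCh37, used without coordinates, and sequences from RefSeq on GRCh38.p14. 89.2% of the genes compared were matched to RefSeq by symbol, and the first start listed for a gene was used. Some genes counted in the lists are not reported here by name.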

Additional observations from a re-analysis of the deposited data

Results flagged for a closer look

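The genes here were picked because the AML1-ETO line and the ETO2-GLIS2 line moved in opposite directions from 0 h to 48 h, each with 1 library a time. The difference was not tested, since no condition had a second library. Each value is the log2 change in the AML1-ETO line minus that in the ETO2-GLIS2 line.

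On the side of the ETO2-GLIS2 line, the difference was -6.62 for VSIR, -6.34 for SLA, -5.66 for CBFA2T3, -5.63 for AL034397.3, -5.51 for FGR, -5.42 for CNR2, -5.14 for CAMP, -4.90 for TNFSF14, -3.33 for FCER1G, -3.29 for RHOU and -2.99 for GLIS2. CBFA2T3 and GLIS2 include reads of the transgene. In the empty-vector line, CNR2 changed by 1.78, VSIR by 2.16, FGR by 1.72, FCER1G by 1.96, CAMP by 1.38 and AL034397.3 by 2.76, the same direction as the ETO2-GLIS2 line, while TNFSF14 changed by -0.05.

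On the side of the AML1-ETO line, the difference was 10.5 for CXCL10, whose change in the ETO2-GLIS2 line rests on 7 reads at 0 h against 0 at 48 h, and 6.08 for MIR4326, with 13 reads in the AML1-ETO library and 0 in the ETO2-GLIS2 library at 48 h. In the empty-vector line MIR4326 changed by 4.53, from 0 reads at 0 h to 2 at 48 h.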

How the results depend on the processing

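The 896 and 1264 genes called higher with AML1-ETO and with ETO2-GLIS2 became 3263 and 2955 with no filter on low values (47.5% on the ETO2-GLIS2 side against 58.5%), 360 and 673 when the mean had to reach 5 FPKM (65.15%), 218 and 379 at a 4-fold limit, 408 and 835 when the near bound of the counting interval had to pass 2-fold (67.2%), and 177 and 140 when 12 h had to pass as well (44.2%). The larger number on the ETO2-GLIS2 side therefore turned round without the filter and with the 12 h condition. Under a pseudocount of 0.01 or 1 FPKM, rescaling by the median ratio (830 and 1335), totals without mitochondrial genes, no genes set aside, or the 0 h ratio subtracted (1056 and 1619), both counts stayed within 1.5 times. None of the 122 named genes past 2-fold changed sign under the other pseudocounts and scalings or with 0 h subtracted, but 16 came under 2-fold with 0 h subtracted, among them LMO2 (0.69), HDAC1 (0.90), PAX5 (0.57), SMAD6 (0.29), BAK1 (0.69), HMGCS1 (0.58) and PSAT1 (-0.67), and 6 with a pseudocount of 1 FPKM. The median of the hedgehog, BMP and ID list changed sign with the scaling, at -0.02 after the median ratio and -0.24 after subtracting 0 h, and after subtracting 0 h that of the B cell markers became -0.13, the ATF4 response 0.02 (from -0.04) and the ETO partners 0.02 (from -0.01). No paired analysis was possible because each condition had 1 library and no replicate number, and for the same reason no library could be left out. Depth limits low genes most: 80 and 67 of the called genes had 1 to 3 reads in the lower library.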
